A study of Arabidopsis thaliana with 26 samples.

Results

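LEA4-5 (AT5G06760) and AtLEA4-1 (AT1G32560) are genes of group 4 of the late embryogenesis abundant (LEA) proteins of Arabidopsis thaliana. Both were chosen by name, with earlier results of these data known, as 2 genes of the 13286 that could be matched to the array. Each was read by 1 of the 22746 probe sets, 250648_at for LEA4-5 and 256464_at for AtLEA4-1. A further group 4 gene, LEA18 (AT2G35300, also named AtLEA4-2, probe set 266544_at), is set beside them where it helps.

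Transcripts were measured on 26 single-channel oligonucleotide arrays of T87, a cell line of Arabidopsis grown in suspension, with 1 array per listed sample. Control cells were given 0.6% ethanol, and treated cells abscisic acid (ABA) at 25 µM, salicylic acid (SA) at 300 µM or methyl jasmonate (JA in the labels) at 100 µM, either singly or as the pairs ABA+SA and ABA+JA, for 3 h or 24 h. Whether the hormone cultures also received ethanol is not stated in the labels. ABA alone had 3 arrays at each time, and each of the other groups, which bring the total to 12, had 2.

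LEA proteins are small, very hydrophilic and largely unfolded proteins that accumulate late in seed maturation and, in leaves and roots, when water is short. Group 4 members can keep enzymes active in vitro when water is lost, and plants that lack them tolerate drought poorly. ABA, the hormone of drought and seed maturation, binds soluble receptors that then inhibit protein phosphatases, and this frees SnRK2 kinases to activate bZIP factors at ABA-responsive elements of target promoters. SA and JA are hormones of defence against pathogens, wounding and insects.

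Some features of the arrays touch every value below. The title and the source name of the 4 combined arrays of 3 h exchange SA and JA. They are grouped by title here, so their mean against ABA alone does not depend on this choice but any statement that names SA or JA does. The same 4 arrays had the lowest array medians, 4.89 to 4.98 on the log2 scale against 5.02 to 5.29 on the other 22, and quantile scaling put the change of AtLEA4-1 from ABA alone to ABA with JA at 5.03 against 4.99 as deposited. Arrays 2 and 3 of ABA at 3 h were closer to each other (r = 0.998 over all probe sets) than any of the other 15 replicate pairs (r = 0.946 to 0.989), so they were averaged and counted as 1 in means and SDs. The labels do not say whether arrays of a group stem from different cultures. The p-values therefore refer to the spread of arrays, which may be technical, and the small number of arrays limits the precision. In a culture, fewer expressing cells and less RNA per cell cannot be told apart.

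LEA4-5 rose strongly in cells given ABA alone, and AtLEA4-1 did so at 24 h but was not called at 3 h. In the ethanol controls the log2 signal of LEA4-5 was 3.91 and 3.33 after 3 h, then 3.29 and 2.87 after 24 h. On the ABA arrays it was 10.03, 10.97 and 10.92 after 3 h, then 10.004, 8.87 and 9.55 after 24 h. The ABA arrays lay far above every ethanol array at both times. For AtLEA4-1 the ethanol arrays gave 2.71 and 3.04 after 3 h and the ABA arrays 2.47, 3.30 and 3.27. After 24 h the ethanol arrays gave 2.81 and 2.46 and the ABA arrays 6.99, 4.80 and 6.14. Its groups overlapped at 3 h and were apart at 24 h, where the ABA arrays differed widely among themselves.

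In the limma fit over all arrays, ABA raised LEA4-5 by 7.02 ± 0.36 (log2, SE) at 3 h with an adjusted p of 3.35e-09. At that time 18.1% of all probe sets were called in either direction, at an adjusted p under 0.05. The change of AtLEA4-1 at 3 h was 0.14 ± 0.51 (adjusted p = 0.894 by limma, 95% interval -0.93 to 1.20). At 24 h, where 18.3% of probe sets were called, ABA raised LEA4-5 by 6.39 ± 0.36 (adjusted p = 9.7e-09 by limma) and AtLEA4-1 by 3.34 ± 0.51 (adjusted p = 0.000208). No detection calls were used, so the low readings of either gene cannot be told from background. Differences from them are therefore given on the deposited log2 scale only, with no fold.

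Between 3 h and 24 h of ABA the genes moved in opposite directions. LEA4-5 fell by 1.17 ± 0.32 from 3 h to 24 h (adjusted p = 0.0368 by limma; 6.55% of probe sets called), while AtLEA4-1 rose by 2.96 ± 0.45 (adjusted p = 0.000689). The call on LEA4-5 was lost without array 2 or 3 of ABA at 3 h or array 2 or 3 of ABA at 24 h (changes of -1.20 to -0.86, adjusted p = 0.0929 to 0.152), and with arrays 2 and 3 of ABA at 3 h averaged (-1.01, adjusted p = 0.151). In the ethanol cultures neither gene was called over the same interval (11.2% of probe sets called), with changes of -0.54 for LEA4-5 and -0.24 for AtLEA4-1. Measured against the ethanol control of each time, the ABA response of AtLEA4-1 was 3.20 ± 0.72 larger at 24 h than at 3 h (adjusted p = 0.00908 by limma; 9.54% called). For LEA4-5 that difference was -0.63 ± 0.51 and was not called (adjusted p = 0.53).

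**Figure D1:**
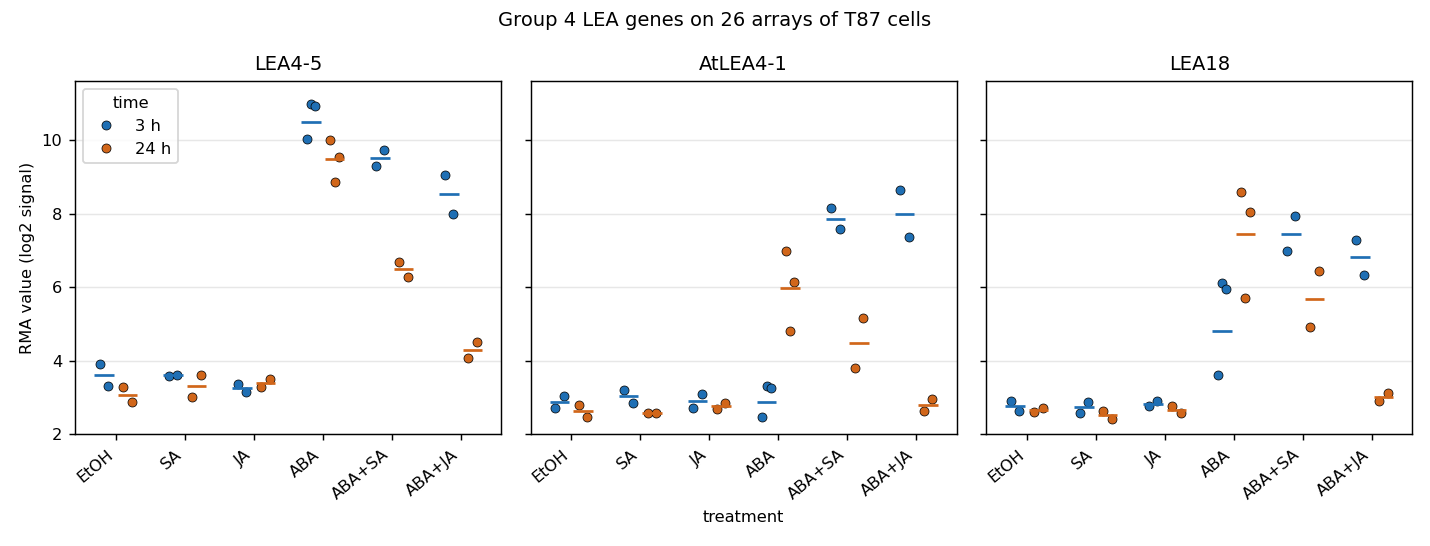
Log2 signal of LEA4-5, AtLEA4-1 and LEA18 on every array (points), with the group means, for the 12 hormone and time groups. LEA4-5 was high on all ABA arrays at 3 h (8.00 to 10.97), whereas AtLEA4-1 was high at 3 h on the 4 arrays with a second hormone (7.36 to 8.64) and low with ABA alone (2.47 to 3.30).

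With SA or JA and no ABA both genes read low, as in the controls, and neither was called. After 3 h the signal of LEA4-5 was 3.59 and 3.61 in SA cultures, and 3.38 and 3.16 in JA cultures. After 24 h it was 3.02 and 3.60 in SA cultures, and 3.29 and 3.51 in JA cultures. AtLEA4-1 read between 2.58 and 3.22 on the 8 arrays with SA or JA alone. Across the 12 arrays without ABA, LEA4-5 stayed between 2.87 and 3.91 and AtLEA4-1 between 2.46 and 3.22. Neither gene was called in any of the 4 comparisons with ethanol, in which 0.141% (SA, 3 h), 0.374% (SA, 24 h), 0.374% (JA, 3 h) and 4.88% (JA, 24 h) of probe sets were called. The 95% interval of the change in LEA4-5 ran from -0.84 to 0.82 with SA and from -1.18 to 0.49 with JA at 3 h, and from -0.60 to 1.06 and -0.51 to 1.15 at 24 h. For AtLEA4-1 the intervals were -1.01 to 1.33 and -1.13 to 1.20 at 3 h, and -1.22 to 1.11 and -1.03 to 1.30 at 24 h. Changes anywhere within these intervals are compatible with the data.

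At 3 h a second hormone beside ABA went with opposite changes of the genes, a lower LEA4-5 and a much higher AtLEA4-1 than with ABA alone. LEA4-5 read 9.30 and 9.72 with ABA and SA and 9.05 and 8.00 with ABA and JA. All 4 arrays lay below the 3 arrays of ABA alone. AtLEA4-1 read 8.15 and 7.57 with ABA and SA and 8.64 and 7.36 with ABA and JA. Each of these was more than 4 log2 units above the highest array of ABA alone, 3.30.

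AtLEA4-1 was higher than with ABA alone by 4.84 ± 0.51 with SA (adjusted p = 7.98e-06 by limma; 20.6% of probe sets called) and by 4.99 ± 0.51 with JA (adjusted p = 2.97e-06; 24.8% called). Against ethanol the combinations raised it by 4.98 ± 0.55 (adjusted p = 1.15e-05 by limma; 16.3% called) and 5.12 ± 0.55 (adjusted p = 5.48e-06; 23.3% called). Against SA alone the rise was 4.82 ± 0.55 (13.3% of probe sets called) and against JA alone 5.09 ± 0.55 (21.2% called), with adjusted p-values of 1.99e-05 and 8.78e-06 by limma. The combined change also exceeded the summed single changes. This interaction was 4.68 ± 0.75 for ABA with SA (adjusted p = 0.00357 by limma; 3.89% called) and 4.95 ± 0.75 for ABA with JA (adjusted p = 0.000637; 9.48% called). All of these calls held when any 1 array was left out.

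LEA4-5 was lower than with ABA alone by 2.11 log2 units with JA (change -2.11 ± 0.36, adjusted p = 0.000378 by limma) and its change with SA was -1.13 ± 0.36 (adjusted p = 0.0338). The call with SA was lost when array 2 or 3 of ABA, or either array of ABA and SA, was left out (-1.34 to -0.92, adjusted p = 0.0749 to 0.232). It was also lost with arrays 2 and 3 of ABA averaged (-0.98, adjusted p = 0.1). LEA4-5 stayed far above ethanol in both combinations, by 5.89 ± 0.40 with ABA and SA and 4.91 ± 0.40 with ABA and JA (adjusted p = 5.09e-08 and 3.71e-07 by limma). Its interaction was -1.12 ± 0.54 with SA (adjusted p = 0.277 by limma) and -1.77 ± 0.54 with JA (adjusted p = 0.0454). The latter call was lost in 7 of 9 fits that left out 1 array (either array of ethanol or of JA, array 2 or 3 of ABA, array 2 of ABA and JA), with values of -2.06 to -1.24 and adjusted p-values of 0.0571 to 0.191. It was lost as well with arrays 2 and 3 of ABA averaged (-1.62, adjusted p = 0.0904).

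The combinations themselves were not told apart at 3 h. ABA with SA minus ABA with JA, a comparison added after the data were seen, was 0.98 for LEA4-5 (adjusted p = 0.471 by limma) and -0.14 for AtLEA4-1 (adjusted p = 0.995), with 0.448% of probe sets called. Averaged over the 4 combined arrays, LEA4-5 lay 1.47 below ABA alone (difference -1.47) and AtLEA4-1 lay 5.05 above it, whichever label of SA and JA is right. An exact two-sided permutation test of 4 arrays against 2 samples gave p = 0.133 for each, the smallest p this design allows.

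**Figure D2:**
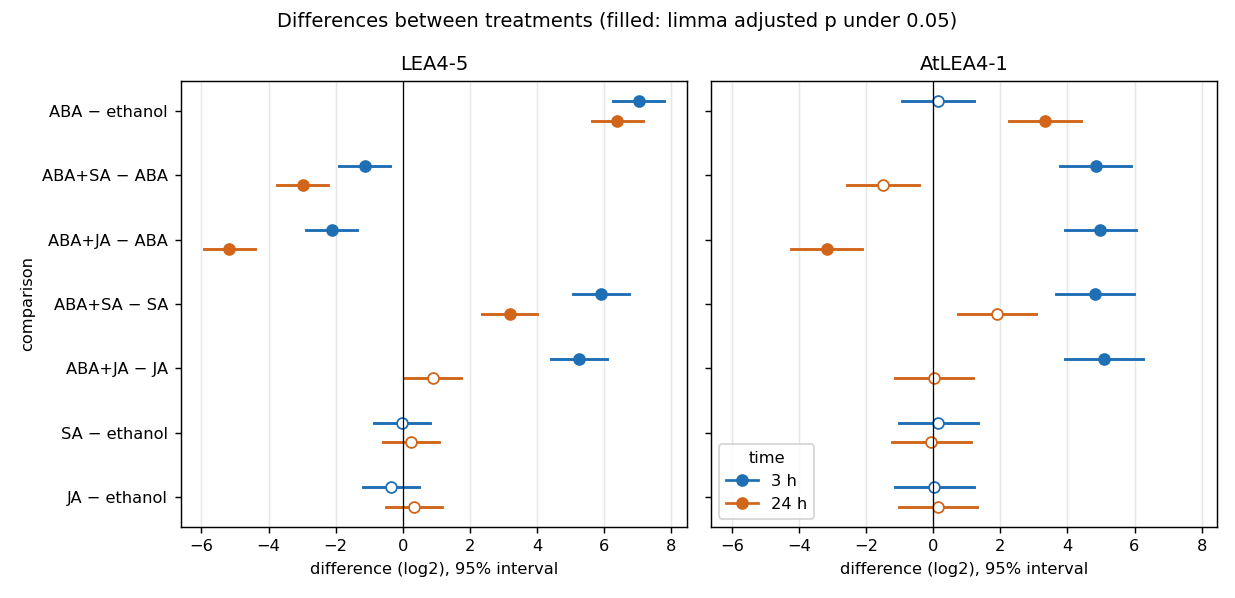
Change in log2 signal (points) with 95% intervals from the limma fit, for LEA4-5 on the left and AtLEA4-1 on the right, at 3 h and 24 h. Adding SA or JA to ABA moved AtLEA4-1 by 4.84 and 4.99 at 3 h but by -1.49 and -3.18 at 24 h, while LEA4-5 moved down at both times.

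At 24 h both genes read lower on average with a second hormone than with ABA alone. They were lowest with JA, and the difference between JA and SA was called for LEA4-5 and not for AtLEA4-1. LEA4-5 read 6.69 and 6.29 with ABA and SA and 4.09 and 4.51 with ABA and JA, below the lowest array of ABA alone (8.87). AtLEA4-1 read 3.80 and 5.17 with ABA and SA, which overlapped ABA alone, and 2.64 and 2.96 with ABA and JA, the first of them among the arrays without ABA at that time and the second just above them.

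Beside ABA at 24 h, SA lowered LEA4-5 by 2.98 ± 0.36 (change -2.98; 7.90-fold, adjusted p = 5.16e-05 by limma; 6.97% of probe sets called). JA lowered it further, with a change of -5.17 ± 0.36 (adjusted p = 6.77e-08; 9.57% called). AtLEA4-1 changed by -3.18 ± 0.51 with JA (adjusted p = 0.000717 by limma), and its change with SA, -1.49 ± 0.51, missed the threshold (adjusted p = 0.0863, 95% interval -2.55 to -0.42). Without array 2 of ABA at 24 h, the lowest of that group, the latter was called at -2.07 (adjusted p = 0.0132).

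Set against ethanol, LEA4-5 was still raised by ABA with SA at 24 h, by 3.41 ± 0.40 (adjusted p = 4.84e-05 by limma; 4.33% of probe sets called). With ABA and JA its change was 1.22 ± 0.40 and was not called (adjusted p = 0.0622; 9.25% called), although both arrays lay above every array without ABA. AtLEA4-1 differed from ethanol by 1.85 ± 0.55 with ABA and SA (adjusted p = 0.0742 by limma) and by 0.16 ± 0.55 with ABA and JA (adjusted p = 0.906). The former was called without array 1 of ABA and SA (2.53, adjusted p = 0.0444). Against SA alone, ABA with SA gave 3.18 for LEA4-5 (adjusted p = 0.000241 by limma; 2.71% called) and 1.90 for AtLEA4-1 (adjusted p = 0.0857). Against JA alone, ABA with JA gave 0.90 for LEA4-5 (95% interval 0.06 to 1.73) and 0.02 for AtLEA4-1 (95% interval -1.15 to 1.19). In that comparison limma called 0% of probe sets, 0 of 22746, with 745 at an unadjusted p under 0.05, so the missing calls are not particular to these genes.

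The interaction at 24 h was -3.21 ± 0.54 for LEA4-5 with SA (adjusted p = 0.00589 by limma; 0.725% of probe sets called) and -5.50 ± 0.54 with JA (adjusted p = 3.76e-05; 2.33% called). For AtLEA4-1 it was -1.43 ± 0.75 with SA (adjusted p = 0.516 by limma) and -3.31 ± 0.75 with JA (adjusted p = 0.0263). The last call was lost in 6 of 9 fits that left out 1 array (either array of ethanol or of JA, array 1 of ABA, array 1 of ABA and JA), with values of -3.49 to -2.81 and adjusted p-values of 0.0519 to 0.103. ABA with SA exceeded ABA with JA by 2.19 ± 0.40 for LEA4-5 (adjusted p = 0.0037 by limma; 4.75% called), a call lost without array 1 of ABA and JA (1.98, adjusted p = 0.0549). For AtLEA4-1 the same difference was 1.69 ± 0.55 (adjusted p = 0.0912).

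The arrays of JA and of ABA with JA at 24 h were uneven over the whole array. An axis set SA at 3 h to 0 and SA at 24 h to 1. It was computed over the 3242 probe sets that limma called between those groups. On it the JA arrays lay at 0.0831 and 0.658 and those of ABA with JA at 0.1003 and 0.326. Ethanol at 24 h lay at 0.902 and 0.970, and ABA alone at 24 h at 0.392 to 0.491. The part of this spread in the results above was not tested. With array 1 of both groups left out, LEA4-5 with ABA and JA still differed from ABA alone by -4.96 (adjusted p = 9.86e-06 by limma) and AtLEA4-1 by -3.02 (adjusted p = 0.0194). The interaction of ABA with JA was then -5.39 for LEA4-5 (adjusted p = 0.00126 by limma) and -3.23 for AtLEA4-1, no longer called (adjusted p = 0.179).

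The effect of a second hormone beside ABA therefore differed between the times for both genes, in size for LEA4-5 and in the sign of the estimates for AtLEA4-1. These differences were tested after the data were seen. For SA the effect at 24 h minus that at 3 h was -1.85 ± 0.51 for LEA4-5 (adjusted p = 0.0218 by limma; 13.7% of probe sets called) and -6.33 ± 0.72 for AtLEA4-1 (adjusted p = 4.63e-05). For JA it was -3.06 ± 0.51 for LEA4-5 (adjusted p = 0.00154 by limma; 8.62% called) and -8.16 ± 0.72 for AtLEA4-1 (adjusted p = 7.51e-06). The first of these was lost without array 1 of ABA or array 2 of ABA and SA at 24 h, or array 2 of ABA and SA at 3 h (-1.65 to -1.59, adjusted p = 0.0569 to 0.108), and with SA and JA exchanged at 3 h as the source names have it (-0.87, adjusted p = 0.26). The combined arrays at 3 h lay at -0.166 to -0.114 on the culture time axis and those of ABA alone at 0.463 to 0.579, a difference whose part in these results was not tested. Ethanol at 3 h lay at 0.0793 and 0.148, and ABA alone at 24 h at 0.392 to 0.491. The axis thus did not order the arrays of ABA alone by time. Every comparison with ABA alone at 3 h uses those arrays.

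**Figure D3:**
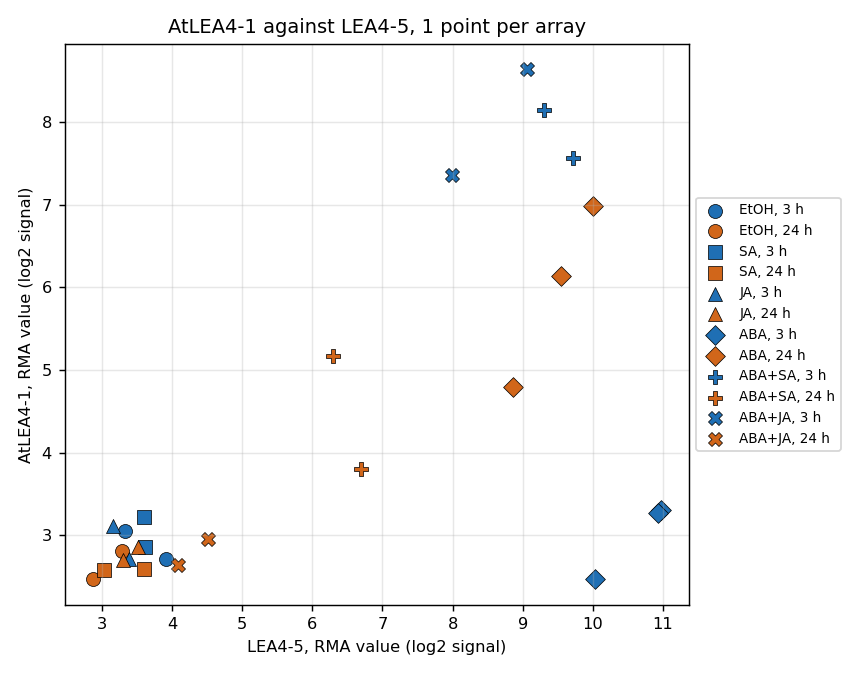
Log2 signal of AtLEA4-1 (vertical axis) against that of LEA4-5 (horizontal axis), 1 point per array, by treatment and time. The 3 arrays of ABA alone at 3 h lie at high LEA4-5 (10.03 to 10.97) and low AtLEA4-1 (2.47 to 3.30), apart from the 4 combined arrays of 3 h.

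Over all treatments the order of the group means differed between the genes. For LEA4-5 it ran from ABA at 3 h (10.49 ± 0.65, SD, n = 2) through ABA with SA at 3 h (9.51 ± 0.30, n = 2), ABA at 24 h (9.47 ± 0.57, n = 3) and ABA with JA at 3 h (8.53 ± 0.75, n = 2) to ABA with SA at 24 h (6.49 ± 0.29, n = 2) and ABA with JA at 24 h (4.30 ± 0.30, n = 2). Of these, ABA with SA at 3 h, ABA at 24 h and ABA with JA at 3 h overlapped in that order, the others did not overlap their neighbours, and the 6 groups without ABA followed with means of 3.08 to 3.62. For AtLEA4-1 ABA with JA at 3 h (8.00 ± 0.91, n = 2) and ABA with SA at 3 h (7.86 ± 0.41, n = 2) overlapped at the top. ABA at 24 h (5.97 ± 1.10, n = 3) and ABA with SA at 24 h (4.49 ± 0.97, n = 2) came next and overlapped each other. The other 8 groups had means of 2.59 to 3.04, overlapped their neighbours in the order, and included ABA at 3 h and ABA with JA at 24 h.

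All arrays with ABA were also set against all arrays of the same time without it. LEA4-5 was higher with ABA by 6.01 at 3 h (6 samples against 6, exact two-sided permutation p = 0.00216) and by 3.88 at 24 h (7 against 6, exact permutation p = 0.00117), the smallest p-values these designs allow. AtLEA4-1 was higher by 3.30 at 3 h (exact permutation p = 0.039) and by 1.98 at 24 h (exact permutation p = 0.00583). The arrays with ABA pool unlike groups. At 3 h AtLEA4-1 read 2.47 to 3.30 with ABA alone and 7.36 to 8.64 in the combinations. At 24 h it read 4.80 to 6.99 with ABA alone but 2.64 and 2.96 with ABA and JA. The p of AtLEA4-1 at 3 h exceeded 0.05 in 10 of 13 repeats that left out 1 array, each of the 10 being without 1 array of ethanol, SA, JA or a combination (2.82 to 3.36, exact permutation p = 0.0519 to 0.0779). The within-array difference of LEA4-5 and AtLEA4-1 was larger with ABA by 2.71 at 3 h (exact permutation p = 0.0519) and by 1.90 at 24 h (exact permutation p = 0.00117). At 3 h that exact permutation p was 0.0303 to 0.0346 without array 1 of ethanol or either array of ABA and JA (2.84 to 3.28). The mean within-array difference at 3 h was 7.61 with ABA alone and 1.09 in the combinations, which the pooled value does not show.

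LEA18, the other group 4 gene, shared features of both. It read 2.42 to 2.90 on the 12 arrays without ABA. The arrays of ABA alone gave 3.62, 6.11 and 5.94 after 3 h, then 8.57, 5.72 and 8.05 after 24 h, above all arrays without ABA. The combined arrays read 6.98 and 7.93 (ABA with SA) and 7.29 and 6.33 (ABA with JA) at 3 h, all above ABA alone, and 4.91 and 6.44, and 2.91 and 3.14, at 24 h. ABA raised LEA18 by 4.79 ± 0.72 at 24 h (adjusted p = 0.000203 by limma), and JA beside ABA changed it by -4.42 ± 0.72 at that time (adjusted p = 0.000905), a call lost with the groups compared alone (adjusted p = 0.0786). At 3 h its change was 2.46 ± 0.72 with ABA (adjusted p = 0.0247 by limma), a call lost without either array of ethanol or array 2 or 3 of ABA (2.02 to 2.59, highest adjusted p = 0.143). SA beside ABA added 2.23 ± 0.72 at 3 h (adjusted p = 0.0361 by limma), lost without array 1 of ABA or either array of ABA and SA (1.43 to 2.71, highest adjusted p = 0.263), and JA added 1.59 ± 0.72, not called (adjusted p = 0.123).

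Besides the members, 32 of the listed LEA genes were matched to a probe set, namely LEA18, 6 of 10 dehydrins and 25 of 37 others. The counts below cover these matched genes only. ABA alone raised 17 and lowered 1 of them at 3 h (median change 1.10 against 0.02 over all probe sets, of which 7.82% were called higher and 10.3% lower) and raised 16 and lowered 1 at 24 h (median 1.07; 7.04% and 11.3%). Alone, SA called 0.141% of all probe sets at 3 h and 0.374% at 24 h, and JA 0.374% and 4.88%. Among the 32 listed LEA genes both gave 0 calls by limma. Beside ABA at 3 h, SA raised 4 and lowered 2 (9.61% of all probe sets called higher and 11% lower), and JA raised 1 and lowered 3 (12.4% and 12.3%). The highest change with SA among all listed LEA genes other than the members was 2.94 in AT4G36600 (adjusted p = 0.00175 by limma), beside the 4.84 of AtLEA4-1, a gap that was not tested. With JA no other listed LEA gene exceeded the 1.59 of LEA18, and the lowest was COR15B, a chloroplast LEA protein of cold-treated leaves, at -3.12 (adjusted p = 0.000148 by limma). At 24 h SA beside ABA raised 0 and lowered 11 (4.55% of all probe sets called higher and 2.42% lower), and JA raised 1 and lowered 14 (5.38% and 4.19%), with medians of -0.69 and -1.09, and LEA4-5 fell in both. The lowest values at 24 h were those of AT3G02480 with JA, -7.13, and of the dehydrin LTI30 with SA, -5.14 (adjusted p = 4.63e-05 and 0.00332 by limma).

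**Figure D4:**
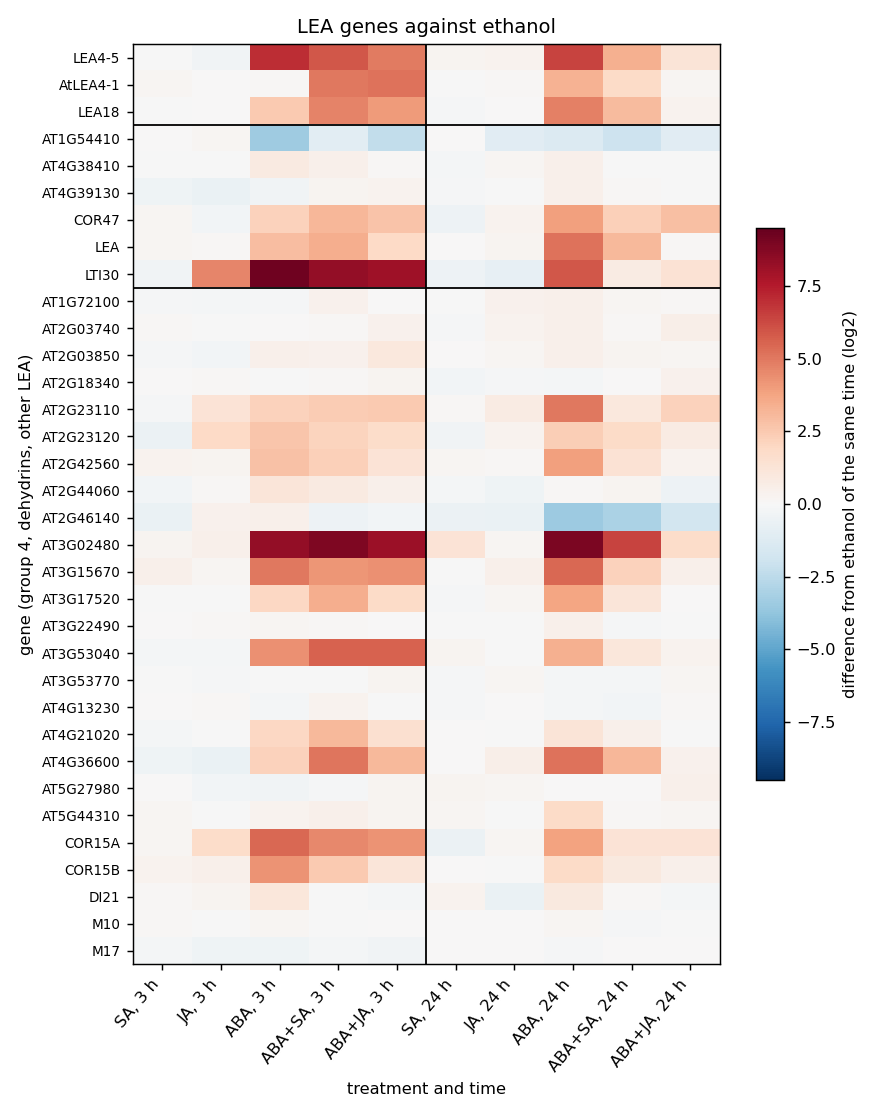
Change in log2 signal of the measured LEA genes (lines) from ethanol of the same time, for each treatment and time (columns). Group 4 comes first and the colour scale is in log2 units. At 3 h AtLEA4-1 stands at 0.14 with ABA alone, 4.98 with ABA and SA and 5.12 with ABA and JA. The medians of the 32 other LEA genes were 1.10, 0.68 and 0.75.

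Of the ABA pathway little could be read here, since 0 of 14 listed receptors, 0 of 9 phosphatases, 0 of 3 kinases and 0 of 9 metabolism genes were matched to a probe set. Of the transcription factors 1 of 10 was measured, EEL, a bZIP factor of seeds, with changes of 0.56 and -0.29 at 3 h and 24 h of ABA (adjusted p = 0.224 and 0.565 by limma). Of further ABA targets 1 of 11 was measured, HIS1-3, a linker histone of drought. Against ethanol it was at -0.18 at 3 h (adjusted p = 0.918 by limma) and at 5.75 at 24 h (adjusted p = 0.000206). Its ethanol arrays read 5.25 to 7.20 at 3 h but 2.51 to 2.75 at 24 h. Its arrays of ABA alone read 5.32 to 6.41 and 7.94 to 8.73. Of the 17 seed maturation genes 2 were measured. AT3G01570, of the oleosin family of oil body proteins, rose by 2.95 at 24 h of ABA (adjusted p = 1.05e-05 by limma) and was at 0.80 at 3 h (adjusted p = 0.103). OLEO3, another oleosin, was at 0.10 and 0.21 and was not called.

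Among all matched genes, those most like LEA4-5 over the 12 group means were AT3G51750, CXE18, AT2G47780, AT5G50360 and AT3G15670, with Pearson's r of 0.976 to 0.982. AT3G15670 is itself a listed LEA gene. LEA18 ranked 72 (r = 0.913) and AtLEA4-1 ranked 767 (r = 0.711). Those most like AtLEA4-1 were AT5G02580, AT1G02700, AT3G58450, AT4G02940 and AT1G23330 (r = 0.927 to 0.961), with LEA18 at rank 36 (r = 0.897). AT5G02580 had group means of only 2.64 to 4.27, against 2.59 to 8.00 for AtLEA4-1, so its r rests on small changes of a dim signal. These correlations are descriptions over 12 points that share arrays and 1 cell line, and the lists of 5 depended on the measure, with 1 and 2 of 5 shared for LEA4-5 and 0 and 3 of 5 for AtLEA4-1 when Spearman's rho or all 26 arrays were used.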

How the data were processed

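The deposited values were used as they stand: log2 signals, 1 per probe set and array, made by RMA per the submitters' processing notes, with a version not given in the sources used here. The log2 scale was read from their range of 1.77 to 13.91. Of the probe sets 13436 matched 1 gene of the annotation, 77 a gene outside it, 503 several and 8730 none, and symbols come from the RefSeq annotation table. No coordinates or sequences are printed.

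A linear model of 12 group means was fitted to all 26 arrays and 22746 probe sets with limma 3.58.1 (R 4.3.3), with residual spread shared by the groups. For AtLEA4-1 and LEA18 several groups with ABA spread more than those without it, so SEs and intervals there may be too small. In each comparison the Benjamini-Hochberg adjustment ran over the whole array, and a probe set was called when its adjusted p was under 0.05. The fit counted the 3 arrays of ABA at 3 h separately, with arrays 2 and 3 averaged as an alternative. Permutation tests were exact and two-sided (SciPy 1.17.1). An interaction is the combined change less the summed single changes. The procedure was tested on simulated data.

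The genes, lists and comparisons were chosen with earlier results of these data known. Genes named are the members, the 5 matched genes with the highest correlation of group means, and measured members of the lists. LEA18 was set beside the members, and the comparisons of the combinations with each other, of the effect of SA or JA at both times, and of the combined arrays with ABA alone were added, after the data were seen. Comparisons share control and ABA arrays. Alternatives were array weights, quantile scaling, the groups compared alone, a replicate block (over both times and, added after the data were seen, within each time), a trended robust prior, the dimmest 20% of probe sets omitted, source names in place of titles, and leaving out each array.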

Additional observations from a re-analysis of the deposited data

Results flagged for a closer look

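Several differences between 3 h and 24 h were larger than the spread between arrays. For AtLEA4-1 the response to ABA alone was larger at 24 h by 3.20 log2 units, with changes of 0.14 at 3 h and 3.34 at 24 h. The effect of SA beside ABA on AtLEA4-1 differed by -6.33 between the times (4.84 at 3 h, -1.49 at 24 h), and that of JA by -8.16 (4.99 at 3 h, -3.18 at 24 h). For LEA4-5 the effect of SA beside ABA differed by -1.85 (-1.13 and -2.98) and that of JA by -3.06 (-2.11 and -5.17). These 5 differences were each called by limma in a test of the difference itself, and all share the arrays of ABA alone. The call on the SA effect in LEA4-5 was lost without some single arrays (-2.15 to -1.55 over all such fits). It was also lost with source names in place of titles (-0.87, adjusted p = 0.26 by limma).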

How the results depend on the processing

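For LEA4-5 and AtLEA4-1, 450 of 478 alternative values other than those leaving out an array kept direction and side of the threshold, 20 lost and 6 gained the call, and 2 changed sign; leaving out an array kept 364 of 420. The cause was not tested where a value changed. With the groups compared alone, which leaves fewer arrays for the spread, LEA4-5 lost the calls for ABA+SA against ABA at 3 h (-1.13, adjusted p = 0.0789), the interaction with JA at 3 h (-1.77, 0.105), that with SA at 24 h (-3.21, 0.0602), ABA+SA against ABA+JA at 24 h (2.19, 0.127) and ABA at 24 h against 3 h (-1.17, 0.149), and AtLEA4-1 those for ABA+JA against ABA at 24 h (-3.18, 0.0818) and its interaction (-3.31, 0.163). LEA18 then lost ABA (2.46, 0.088) and ABA+SA against ABA (2.23, 0.12) at 3 h and ABA+JA against ABA at 24 h (-4.42, 0.0786). The labels do not say what a replicate number stands for. Same-numbered arrays deviated together in all 10 pairs of the 3 h groups other than ABA alone (r = 0.253 to 0.553), in 0 of 5 pairs with ABA alone at 3 h (r = -0.24 to -0.021), in 11 of 15 pairs at 24 h and in 11 of 36 between the times (r over 0.1). With a replicate block over both times LEA4-5 lost ABA+SA against ABA (-1.04, 0.0686) and the interaction with JA (-1.68, 0.0673) at 3 h. With a replicate block within each time, added after the data were seen, it lost the same (-0.99, 0.12 and -1.63, 0.103) and ABA at 24 h against 3 h (-1.04, 0.271), AtLEA4-1 lost the interaction with JA at 24 h (-3.23, 0.0651), and LEA18 in ethanol at 24 h against 3 h changed sign (0.23). With array weights calls were gained for the interaction of ABA with SA at 3 h in LEA4-5 (-1.42, 0.036) and, in AtLEA4-1 at 24 h, for ABA+SA against ethanol (1.85, 0.0237), ABA (-2.12, 0.00178) and SA (1.90, 0.0197). Grouped by source name, the interaction at 3 h in LEA4-5 was called with SA (-2.10, 0.0231) and not with JA (-0.79, 0.438), the change of the SA effect with time was not called (-0.87, 0.26), and ABA+SA minus ABA+JA at 3 h changed sign by construction in LEA4-5 (-0.98), AtLEA4-1 (0.14) and LEA18 (-0.65). With arrays 2 and 3 of ABA at 3 h averaged, LEA4-5 lost ABA+SA against ABA (-0.98, 0.1), the interaction with JA (-1.62, 0.0904) and ABA at 24 h against 3 h (-1.01, 0.151). With both first arrays of JA and ABA+JA (24 h) left out, AtLEA4-1 lost the interaction (-3.23, 0.179) and LEA4-5 lost ABA+SA against ABA+JA (1.98, 0.0533). With every array of ABA at 3 h counted, the within-array difference at 3 h was 3.34 (exact permutation p = 0.028). LEA18 with JA alone at 24 h changed sign under quantile scaling (-0.10) and without those first arrays (-0.074).
Leaving out 1 array at a time gave, for LEA4-5, -1.44 to -0.92 for ABA+SA against ABA at 3 h, -2.30 to -1.24 for the interaction with JA at 3 h, -1.47 to -0.86 for ABA at 24 h against 3 h, -2.15 to -1.55 for the SA effect between times, 1.98 to 2.41 for ABA+SA against ABA+JA at 24 h, and -0.30 to 0.28 (3 h) and -0.058 to 0.52 (24 h) for SA alone. For AtLEA4-1 it gave -0.029 to 0.41 for ABA at 3 h, -0.025 to 0.34 and -0.23 to 0.12 for SA alone, -0.16 to 0.24 and -0.037 to 0.31 for JA alone, 1.17 to 2.53 (ABA+SA) and -0.016 to 0.33 (ABA+JA) against ethanol at 24 h, -2.17 to -0.80 for ABA+SA against ABA at 24 h, -0.78 to 0.50 for ABA+SA against ABA+JA at 3 h, -0.14 to 0.18 for ABA+JA against JA at 24 h, -3.90 to -2.81 for the interaction with JA at 24 h, and 2.82 to 4.06 for all ABA arrays at 3 h. The within-array difference at 3 h ranged from 1.85 to 3.28. LEA18 changed sign within -0.18 to 0.12 (SA, 3 h), -0.063 to 0.21 (JA, 3 h), -0.074 to 0.11 (JA, 24 h) and -0.24 to 0.026 (ethanol, 24 h against 3 h).

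The number of called probe sets moved by over 1.5 times under some alternative in 28 of the comparisons, mostly up with array weights and down without a control array or with the groups alone. Against ethanol, ABA called 4115 (1966 to 7882 over the alternatives) at 3 h and 4167 (2041 to 6950) at 24 h, ABA+SA 3713 (2129 to 5300) and 984 (495 to 1604), and ABA+JA 5300 (3204 to 5684) and 2105 (263 to 2568). SA alone called 85 (28 to 135) at 24 h, and JA alone 85 (37 to 159) at 3 h and 1110 (0 to 2209) at 24 h. Against ABA alone, ABA+SA called 4681 (2482 to 7006) at 3 h and 1585 (395 to 3712) at 24 h, and ABA+JA 5632 (3589 to 6523) and 2176 (328 to 2504). Against the other single hormone the counts were 3032 (1714 to 4391) and 616 (170 to 1227) with SA, and 4811 (2605 to 5185) and 0 (0 to 144) with JA. ABA+SA against ABA+JA called 102 (47 to 135) and 1081 (40 to 1611). The interaction called 884 (228 to 2378) and 165 (76 to 744) with SA, and 2156 (1030 to 3431) and 531 (92 to 710) with JA. Between 3 h and 24 h the counts were 2538 (799 to 4460) in ethanol, 1490 (563 to 7821) in ABA, 2170 (1152 to 5700) for the ABA response, and 3114 (1682 to 5941) and 1961 (973 to 2407) for the effects of SA and JA beside ABA.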
